A study of Homo sapiens with 4 samples.

Results

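The citrate cycle enzymes described here are PDHA1, CS, IDH3A, IDH3B, OGDH, SUCLG1, FH and MDH2, with ACOD1, which takes an intermediate out of the cycle. These 9 genes were chosen by name from the 41084 Ensembl identifiers in the deposited gene tables, and each symbol matched 1 identifier. RNA of OCI-AML3, an established human acute myeloid leukaemia line, was sequenced in 4 poly(A) libraries. In 2 libraries the genotype is labelled Plex CEBPB and in 2 it is labelled Plex Control. The word Plex is not explained in the sources used here, and nothing states a drug, a time or a second cell line. The CEBPB gene makes the transcription factor C/EBPβ, which acts on myeloid and inflammatory genes. The series title places it in a loop with IL-1β and TNFα in resistance to BCL2 and MDM2 inhibitors. No label says that the libraries of a group came from separate cultures, so p-values measure the spread between these libraries, which may be technical. Levels are in TPM, an abundance per transcript that is scaled for length and has the same sum in every library. They are given per library or as mean ± SD with n = 2 per group.

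The citrate cycle oxidises the acetyl group of acetyl-CoA in the mitochondrial matrix and passes electrons to the respiratory chain as NADH and reduced flavin. It is also a source of building blocks, since citrate leaves the mitochondrion for lipid synthesis and oxoglutarate and oxaloacetate feed amino acid synthesis. In activated myeloid cells the cycle is known to be rerouted, and ACOD1, the enzyme that makes itaconate from cis-aconitate, is a well-studied inflammatory gene of macrophages.

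The library labels were checked on CEBPB, which was at 4.72 and 4.47 TPM in the controls and at 536 and 339 TPM in the CEBPB libraries. Deposited counts summed to between 18151225 and 21950575 per library. Of 10 myeloid marker genes 9 reached 1 TPM in some library, while ANPEP stayed at or below 0.792 TPM and MPO at or below 1.79 TPM. The myeloid list summed to 2548 and 2450 TPM in the controls and to 8409 and 8790 TPM in the CEBPB libraries, most of it from LYZ (1413 and 1308 against 7686 and 7921 TPM). LYZ rose (log2 2.34), while CD68 (-1.26), SPI1 (-1.16), CSF3R (-1.13), TYROBP (-0.92) and MPO (-2.43) fell. CD33 was at 46.5 to 53.0 TPM and did not pass. The part of these changes in the results on the cycle genes was not tested. The 4 erythroid markers were at 0 in every library, and no T cell or epithelial marker reached 1 TPM. Of 4 B cell markers only PAX5 reached 1 TPM, at 1.12 and 1.01 TPM in the controls against 0.531 and 0.971 TPM, and the list summed to between 0.748 and 2.12 TPM. The fibroblast list summed to 1.49 and 1.32 TPM in the controls and to 22.3 and 21.8 TPM in the CEBPB libraries, nearly all of it from DCN. COL1A1 was at 0.449 and 0.734 TPM in the controls and at 1.84 and 0.928 TPM in the CEBPB libraries, which missed the threshold (adjusted p = 0.154, edgeR), and COL1A2 and COL3A1 were at 0.0198 TPM or less in every library. In bulk RNA, fewer cells of a type and less RNA per cell cannot be told apart.

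Of the 8 cycle members with enough counts to test, 5 were lower in the CEBPB libraries and 0 higher, and PDHA1, OGDH and FH did not pass. SUCLG1 (1.47-fold), MDH2 (1.39-fold) and IDH3A (1.33-fold) fell most, and CS and IDH3B each fell 1.22-fold. ACOD1 gave 1 read in 1 CEBPB library and none elsewhere. Calls are from edgeR's quasi-likelihood test with trimmed-mean scaling, at a Benjamini-Hochberg adjusted p under 0.05 over 13698 identifiers. In the same fit 24.7% of all identifiers were lower and 23.7% higher. The median log2 fold change was -0.28 over the 8 members and 0.00092 over all identifiers tested. At an unadjusted p under 0.05 the count of higher members was also 0 with edgeR, beside 3795 of all 13698 identifiers. With DESeq2 it was 1 at that cut and 0 after adjustment, where 3115 of 19845 identifiers were higher. Tested against a 1.5-fold change instead of no change, 0 of the 8 members passed with edgeR, also at an unadjusted p under 0.05, while 17.3% of all identifiers passed after adjustment.

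The scaling of the libraries decided part of this count. Scaled by library totals alone, the median identifier stood at 0.18 on the log2 scale, and 32.3% of identifiers were called higher and 17.2% lower, against 23.7% and 24.7% with trimmed-mean scaling. On that scale SUCLG1 (-0.37, adjusted p = 0.0073, edgeR) and MDH2 (-0.30, adjusted p = 0.014, edgeR) were still called lower. PDHA1 (0.38, adjusted p = 0.032, edgeR) and OGDH (0.29, adjusted p = 0.020, edgeR) were called higher. CS (-0.11), IDH3A (-0.24) and IDH3B (-0.11) kept their sign and did not pass, and FH turned from -0.035 to 0.15. The TPM summed over the 8 members was 1072.4 and 1073.4 in the controls and 1091.3 and 1022.2 in the CEBPB libraries, so the groups overlapped in that sum. For CS, IDH3A and IDH3B the call with edgeR is one relative to the median gene. IDH3A was close to the threshold with library totals (adjusted p = 0.054, edgeR). It was called lower on log2 TPM with 0.1 or 1 added (adjusted p = 0.046 and 0.043, limma). CS and IDH3B did not pass there (adjusted p = 0.19 to 0.22, limma). In TPM, which follows the library totals, 5 members were lower in both CEBPB libraries than in both controls, and PDHA1 and OGDH were higher in both. Of all tested identifiers 28.6% lay wholly lower and 48.7% wholly higher in this way.

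**Figure D1:**
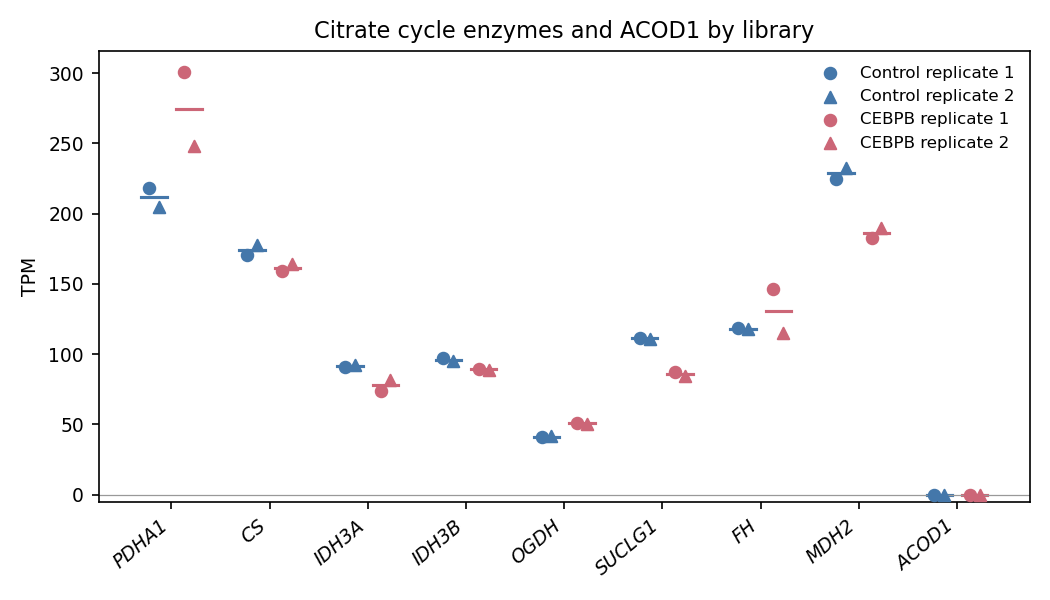
TPM of the 9 genes (vertical axis) in each library. Circles are replicate 1, triangles replicate 2, blue the controls and red the CEBPB libraries, with a bar at each group mean of n = 2. PDHA1 and OGDH lie higher in both CEBPB libraries, MDH2, SUCLG1, IDH3A, IDH3B and CS lie lower, FH overlaps and ACOD1 lies at 0.

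**Figure D2:**
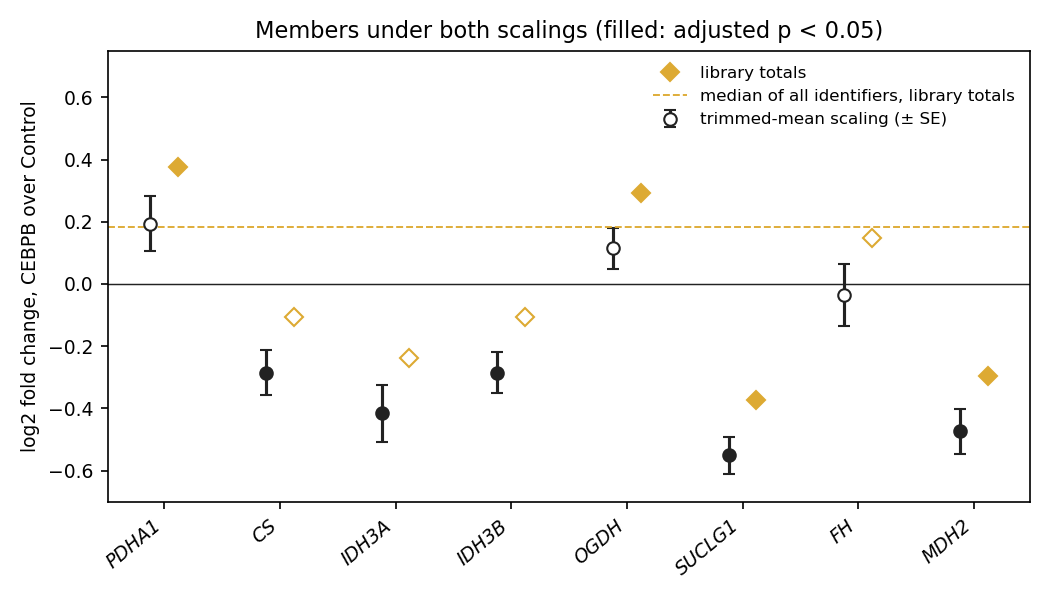
Log2 fold change of CEBPB over Control for the 8 tested members, with trimmed-mean scaling (circles, bars of ± 1 SE, n = 2 per group) and with library totals (diamonds). Filled symbols have an adjusted p under 0.05, and the dashed line is the median of all identifiers under library totals, at 0.18. SUCLG1 and MDH2 are filled under both scalings.

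The order of the levels changed at its top. In the controls the means ran from MDH2 (229 TPM) through PDHA1 (212), CS (174), FH (118), SUCLG1 (111), IDH3B (95.9) and IDH3A (91.7) to OGDH (41.3) and ACOD1 (0 TPM). In the CEBPB libraries PDHA1 (274 TPM) stood above MDH2 (186), and IDH3B (89.1) above SUCLG1 (86.0). In both groups the 2 values of each gene lay above the 2 values of the next gene in the order, without exception. OGDH was the lowest of the 8 expressed members in both groups.

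Pyruvate enters the cycle through the pyruvate dehydrogenase complex, whose catalytic E1 alpha subunit is encoded by PDHA1 (ENSG00000131828.14, chromosome X, 19343893 to 19361705, plus strand). PDHA1 was at 218 and 205 TPM in the controls and at 301 and 248 TPM in the CEBPB libraries. Both CEBPB libraries were higher, and the gap between them was larger than that between the controls. The difference of 0.19 on the log2 scale (SE 0.088, adjusted p = 0.127, edgeR) did not pass. Without CEBPB replicate 2 it was 0.30 and passed (adjusted p = 0.033, edgeR), and without CEBPB replicate 1 it was 0.096 and did not (adjusted p = 0.322, edgeR). CEBPB replicate 1 also had the higher CEBPB level, 536 against 339 TPM, and a link of that level to PDHA1 was not tested.

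CS encodes citrate synthase, which joins acetyl-CoA to oxaloacetate (ENSG00000062485.19, chromosome 12, 56271699 to 56300392, minus strand). Its level was 170 and 178 TPM in the controls and 159 and 164 TPM in the CEBPB libraries, lower in both with a small gap between groups. Its change was -0.29 on the log2 scale (SE 0.072, adjusted p = 0.023, edgeR), a call that was lost without control 1 (adjusted p = 0.093, edgeR), control 2 (0.152) or CEBPB replicate 1 (0.061). AC073896.1, a gene that overlaps CS on the same strand, was at 18.1 to 24.8 TPM, so reads of the shared stretch may be split between both.

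IDH3A and IDH3B encode the catalytic alpha and the beta subunit of the NAD-dependent isocitrate dehydrogenase, which makes oxoglutarate. IDH3A (ENSG00000166411.14, chromosome 15, 78131498 to 78171949, plus strand) was at 91.1 and 92.3 TPM in the controls and at 73.8 and 81.6 TPM in the CEBPB libraries. It was lower in both, by -0.42 on the log2 scale (SE 0.092, adjusted p = 0.015, edgeR). IDH3B (ENSG00000101365.21, chromosome 20, 2658395 to 2664219, minus strand) was at 96.9 and 94.9 TPM against 89.4 and 88.8 TPM. Its fall was smaller in TPM and was -0.28 on the log2 scale (SE 0.065, adjusted p = 0.017, edgeR). Neither call held without control 1 (adjusted p = 0.062 for IDH3A and 0.121 for IDH3B, edgeR) or without control 2 (0.072 and 0.094). IDH3G, the gene of the gamma subunit, fell from 47.6 and 45.1 TPM to 40.5 and 38.4 TPM (-0.41, adjusted p = 0.0059, edgeR). The 3 subunit genes thus all fell with trimmed-mean scaling, and none of them passed with library totals, where IDH3G had an adjusted p of 0.056 (edgeR) and IDH3A one of 0.054. CIB2 and ACSBG1, which overlap IDH3A on the opposite strand, were at 3.26 TPM or less.

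OGDH encodes the E1 subunit of the oxoglutarate dehydrogenase complex, which makes succinyl-CoA (ENSG00000105953.16, chromosome 7, 44606572 to 44709066, plus strand). It was at 41.0 and 41.7 TPM in the controls and at 51.1 and 50.3 TPM in the CEBPB libraries. Both CEBPB libraries were higher and the replicates lay close, yet the change relative to the median gene was 0.11 on the log2 scale (SE 0.066, adjusted p = 0.210, edgeR) and did not pass. The E2 gene of this complex, DLST, was at 52.1 and 56.5 TPM against 75.3 and 70.0 TPM (0.24, adjusted p = 0.040, edgeR). The DLST call did not hold without any 1 of the 4 libraries (adjusted p = 0.070 to 0.257, edgeR), nor with a replicate block (0.058).

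SUCLG1 encodes the alpha subunit of succinyl-CoA ligase, the step of the cycle that makes a nucleoside triphosphate (ENSG00000163541.12, chromosome 2, 84423523 to 84460045, minus strand). It was at 112 and 111 TPM in the controls and at 87.6 and 84.3 TPM in the CEBPB libraries. The groups were far apart beside the gaps within them, and SUCLG1 differed by -0.55 on the log2 scale (SE 0.061, adjusted p = 0.0015, edgeR). The call held with each library left out (adjusted p = 0.0059 to 0.015, edgeR). The genes of the beta subunits, SUCLG2 (34.6 and 33.9 TPM against 38.4 and 36.8 TPM) and SUCLA2 (54.4 and 58.2 against 62.3 and 57.6 TPM), did not pass (adjusted p = 0.618 and 0.333, edgeR). The TPM of SUCLG1 was 3.22 and 3.27 times that of SUCLG2 in the controls and 2.28 and 2.29 times in the CEBPB libraries, values that were not tested.

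FH encodes fumarate hydratase, which turns fumarate into malate (ENSG00000091483.8, chromosome 1, 241497603 to 241519761, minus strand). Both controls were at 118 TPM, and the CEBPB libraries were at 147 and 115 TPM. The CEBPB libraries lay on both sides of the controls, and the difference of -0.035 on the log2 scale (SE 0.10, adjusted p = 0.802, edgeR) did not pass. Without CEBPB replicate 1 it was -0.17 and without CEBPB replicate 2 it was 0.097 (adjusted p = 0.097 and 0.263, edgeR), so these data give no direction for FH.

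MDH2 encodes the mitochondrial malate dehydrogenase that regenerates oxaloacetate (ENSG00000146701.12, chromosome 7, 76048051 to 76067508, plus strand). It was at 225 and 233 TPM in the controls and at 183 and 190 TPM in the CEBPB libraries, lower in both. It differed by -0.47 on the log2 scale (SE 0.073, adjusted p = 0.0044, edgeR), and the call held with each library left out (adjusted p = 0.0062 to 0.035, edgeR). The stretches before the starts of MDH2 and IDH3B are shown because both genes fell and both hold the motif CCGGAAG, the core bound by ETS factors such as GABPA, a regulator of nuclear genes for mitochondrial proteins. They come from RefSeq on GRCh38.p14, end where GENCODE v29 or RefSeq first starts the gene, and carry the motif in capitals.
MDH2, chr7:76047856-76048050, plus strand: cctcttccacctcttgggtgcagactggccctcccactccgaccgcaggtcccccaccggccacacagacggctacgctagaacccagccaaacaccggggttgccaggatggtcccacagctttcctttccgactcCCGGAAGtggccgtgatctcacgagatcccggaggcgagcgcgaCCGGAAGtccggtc
IDH3B, chr20:2664220-2664466, minus strand: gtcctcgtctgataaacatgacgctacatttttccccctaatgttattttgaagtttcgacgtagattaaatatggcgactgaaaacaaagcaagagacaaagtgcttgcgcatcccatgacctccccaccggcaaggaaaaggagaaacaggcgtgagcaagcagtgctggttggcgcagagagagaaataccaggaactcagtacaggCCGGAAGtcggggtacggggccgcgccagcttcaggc
In MDH2 the matches began 113 and 69 bases before the RefSeq start, and in IDH3B the match began 40 bases before it. Promoter entries matched 8 of the 9 genes, and OGDH was without an entry. Over the 250 bases before the start, on both strands, CCGGAAG was present in 2 of the 8 windows and in 8.48% of 34943 windows of all genes. The windows of SUCLG1, IDH3A and CS, which also fell, held no match. A link between the motif and the fall was not tested. The E-box CACGTG, which MYC binds (6.32% of all windows), and AAGGTCA, bound by ERR receptors (3.44%), were in none of the 8. The NRF1 motif was in 1 window, that of IDH3A, against 5.04% of all. TGANNNNGC, the antioxidant response element, was in the windows of PDHA1, IDH3B and FH and in 35.1% of all windows. A match is a description of the letters and not a measured site.

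ACOD1 (ENSG00000102794.11, chromosome 13, 76948497 to 76958642, plus strand) was listed at 0 TPM in both controls and in CEBPB replicate 2 and at 0.0288 TPM in CEBPB replicate 1. That value is 1 read after recovery of reads from TPM and effective length. A count of 0 allows up to 3 reads, or 0.0767 to 0.0989 TPM depending on the library, and covers counting error only. All 4 libraries were at or under that limit, the gene was removed by the low-count filter, and no fold is given. At this depth ACOD1 gave too few reads to compare the groups. The sequence before its start is shown because the CEBPB label names a factor whose loose motif, TTNNGNAA, it holds as its reverse complement, here in capitals.
ACOD1, chr13:76948261-76948496, plus strand: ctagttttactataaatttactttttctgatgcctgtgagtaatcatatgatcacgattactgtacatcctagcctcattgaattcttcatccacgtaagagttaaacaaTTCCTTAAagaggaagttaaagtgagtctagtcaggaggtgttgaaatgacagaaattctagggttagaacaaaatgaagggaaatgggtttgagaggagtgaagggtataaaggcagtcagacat
The match began 140 bases before the RefSeq start. This motif was in 1 of the 8 windows of these genes and in 33.2% of all windows.

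**Figure D3:**
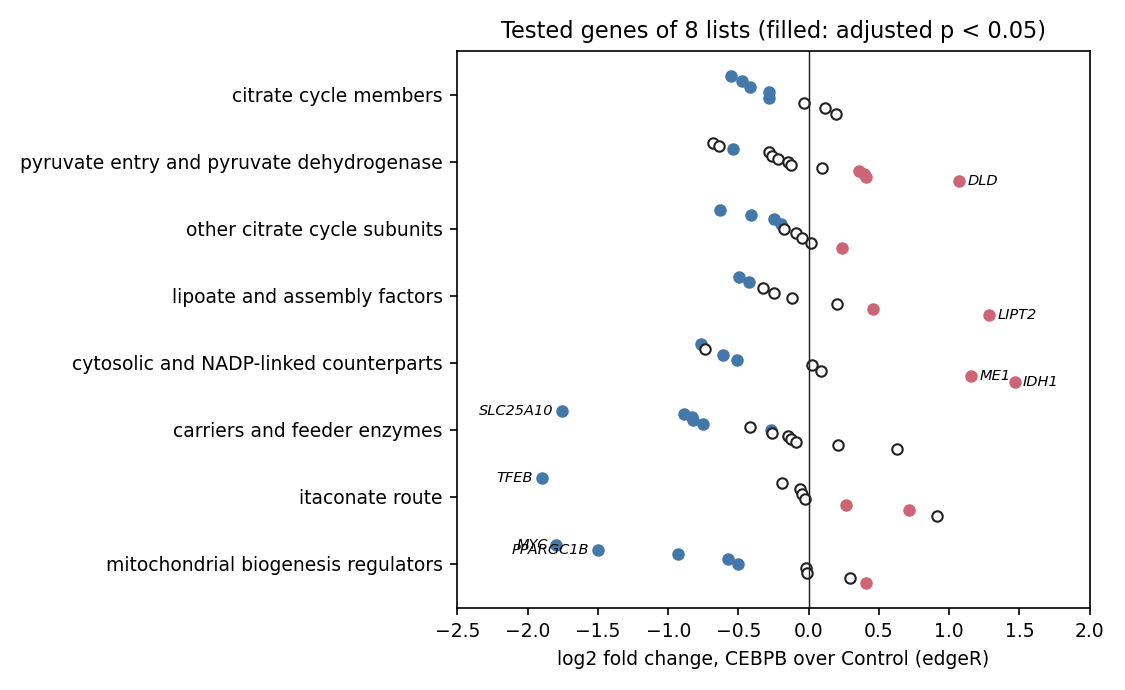
Log2 fold change of CEBPB over Control (horizontal axis, edgeR with trimmed-mean scaling) for each tested gene of the member list and 7 lists around it. Filled symbols have an adjusted p under 0.05, red higher and blue lower, and open symbols did not pass. DLD, LIPT2, ME1 and IDH1 lie to the right of 1 and SLC25A10, TFEB, MYC and PPARGC1B to the left of -1.

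Around PDHA1, pyruvate entry and the pyruvate dehydrogenase complex showed changes in both directions, with 4 of 13 tested genes higher, 1 lower and a median of -0.14. Over all identifiers tested 23.7% were higher and 24.7% lower, with a median of 0.00092. DLD, the E3 subunit that the pyruvate and oxoglutarate complexes share, rose from 113 and 107 TPM to 278 and 246 TPM (2.10-fold, log2 1.07, SE 0.071, adjusted p = 3.7e-04, edgeR). DLAT, the E2 subunit of the pyruvate complex, fell from 70.9 and 67.4 TPM to 57.2 and 50.4 TPM (-0.54, adjusted p = 0.0029, edgeR). The TPM of DLD was 1.60 and 1.59 times that of DLAT in the controls and 4.87 and 4.88 times in the CEBPB libraries. MPC1, a subunit of the mitochondrial pyruvate carrier (0.39), and PDHX, the E3-binding protein of the complex (0.41), rose. The MPC1 call was lost when control 1 was left out (adjusted p = 0.085, edgeR) and the PDHX call when control 2 was (0.094). PDHB, the partner of PDHA1 in E1, was at 77.6 and 79.0 TPM against 85.2 and 77.0 TPM (adjusted p = 0.155, edgeR). PDK4, a kinase that switches the complex off, was at 0 TPM in every library.

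Of the other 9 subunits of the cycle 1 was higher and 4 lower, with a median of -0.18, beside 23.7% higher and 24.7% lower over all identifiers. SDHB, the iron-sulfur subunit of succinate dehydrogenase, fell from 274 and 263 TPM to 199 and 192 TPM (-0.63, SE 0.062, adjusted p = 0.0011, edgeR). SDHA, the flavoprotein subunit, fell by 0.25 on the log2 scale (adjusted p = 0.026, edgeR), while its TPM overlapped between groups, at 139 and 136 against 139 and 124. The call was lost when control 1 (adjusted p = 0.172, edgeR), control 2 (0.125) or CEBPB replicate 2 (0.067) was left out. Of 8 genes of lipoate synthesis and succinate dehydrogenase assembly 2 were higher and 2 lower (median -0.18), both near the shares over all identifiers. LIPT2, a lipoyl transferase (1.29), and FDX1, a ferredoxin of lipoylation (0.46), rose, and the assembly factor SDHAF3 (-0.50) and the lipoate synthase LIAS (-0.42) fell. Each of these 4 calls was lost without at least 1 library. LIPT2 and FDX1 did not pass without CEBPB replicate 1 (adjusted p = 0.051 and 0.052, edgeR), and SDHAF3 and LIAS did not pass without control 2 (0.065 and 0.156). FDX1 (0.083 and 0.065) was also lost without either control and LIAS without control 1 (0.068) or CEBPB replicate 2 (0.136).

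The cytosolic and NADP-linked counterparts spanned log2 fold changes from -0.77 to 1.46, beside -0.55 to 0.19 over the 8 tested members. The other lists also spanned more than the members, such as -1.75 to 0.63 for carriers and feeder enzymes and -1.90 to 0.91 for the itaconate route. Of the 8 counterparts 2 were higher and 3 lower, with a median of -0.24, beside 23.7% higher and 24.7% lower over all identifiers. IDH1, the cytosolic NADP-dependent isocitrate dehydrogenase, rose from 32.0 and 32.3 TPM to 108 and 92.9 TPM (2.76-fold, log2 1.46, SE 0.078, adjusted p = 2.2e-04, edgeR). IDH2, its mitochondrial counterpart, fell from 111 and 105 TPM to 75.2 and 68.1 TPM (-0.77, SE 0.068, adjusted p = 8.1e-04, edgeR). IDH1 was thus at 0.289 and 0.308 times the TPM of IDH2 in the controls and at 1.44 and 1.36 times in the CEBPB libraries. The cytosolic malic enzyme ME1 rose from 16.5 and 14.7 TPM to 41.3 and 37.1 TPM (1.15), while the mitochondrial ME2 fell from 132 and 127 TPM to 113 and 94.0 TPM (-0.51). MDH1, the cytosolic counterpart of MDH2, was at 302 and 318 TPM against 382 and 330 TPM and did not pass (0.022, adjusted p = 0.833, edgeR). ACLY, which splits exported citrate back to acetyl-CoA, fell from 127 and 130 TPM to 97.8 and 93.1 TPM (-0.61, adjusted p = 0.0011, edgeR).

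**Figure D4:**
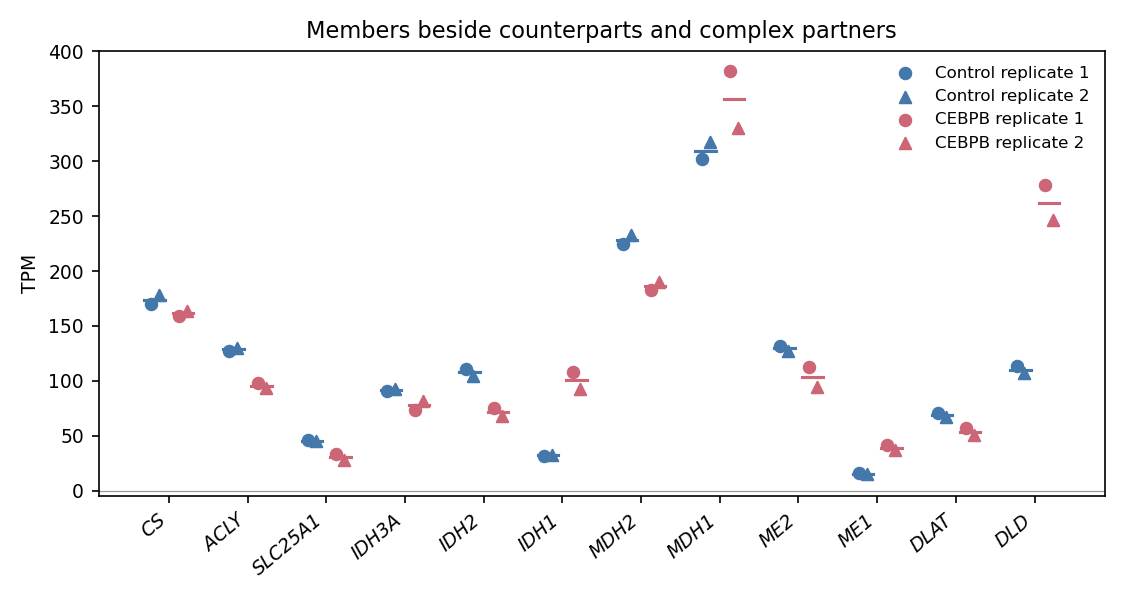
TPM of members and of counterparts or complex partners in each library (blue circles and triangles, control replicates 1 and 2, red ones the CEBPB replicates, bars the group means of n = 2). IDH1 passes IDH2 and DLD moves away from DLAT in the CEBPB libraries, while CS, ACLY, SLC25A1, MDH2 and ME2 lie lower.

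Among carriers and feeder enzymes 6 of 13 were lower and 0 higher with edgeR (median -0.27), beside 24.7% lower and 23.7% higher over all identifiers. At an unadjusted p under 0.05, 1 was higher with edgeR, beside 3795 of all 13698 identifiers. DESeq2 called 1 higher after adjustment, beside 3115 of 19845 identifiers. The citrate carrier SLC25A1 fell from 45.9 and 45.2 TPM to 33.7 and 27.7 TPM (-0.75, adjusted p = 0.0020, edgeR). GLUD1, the glutamate dehydrogenase that feeds oxoglutarate, fell from 115 and 106 TPM to 70.6 and 70.1 TPM (-0.83, adjusted p = 8.4e-04, edgeR), and ACSS1, the mitochondrial acetyl-CoA synthetase, fell (-0.83). SLC25A10, the dicarboxylate carrier, singled out after its values were seen, fell from 20.4 and 21.2 TPM to 9.32 and 4.59 TPM (-1.75, SE 0.28, adjusted p = 0.0051, edgeR).

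The list of the itaconate route holds degradation enzymes, known inducers of ACOD1 and also IRAK3. Of its 8 tested genes 2 were higher and 1 lower (median -0.035), beside 23.7% higher and 24.7% lower over all identifiers. RELA, an NF-κB subunit, rose by 0.27 on the log2 scale (adjusted p = 0.049, edgeR) and did not pass without either control (0.241 and 0.115) or without CEBPB replicate 2 (0.133). TFEB, a transcription factor of lysosomal genes, fell from 13.8 and 14.7 TPM to 4.21 and 4.47 TPM (-1.90, adjusted p = 4.4e-04, edgeR). Of 9 tested regulators of mitochondrial biogenesis 1 was higher and 5 lower, with a median of -0.50, against the same shares over all identifiers. MYC fell from 230 and 245 TPM to 74.4 and 80.2 TPM (-1.80), and the coactivators PPRC1 (-0.93) and PPARGC1B (-1.50, from 7.68 and 6.96 TPM to 3.13 and 2.72 TPM) fell. GABPA rose from 13.2 and 11.2 TPM to 18.4 and 18.4 TPM (0.41, adjusted p = 0.034, edgeR). Its call was lost without control 2 (adjusted p = 0.157, edgeR) and without either CEBPB library (0.076 and 0.117).

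The deposited effective lengths are a further readout of the same libraries. The gene-level effective length, in bases, depends on which transcripts of a gene are counted and on fragment length. For 0 of the 8 members did the groups lie apart by more than 10% of length, against 18.1% of all tested identifiers. PDHA1 (926 and 984 bases against 1011 and 1045) and CS (2520 and 2576 against 2697 and 2709) were 7.63% and 6.09% longer in the CEBPB libraries, beside a median of 2.27% over all tested identifiers. The mean length of MDH2 fell by 7.18% (1733 and 1715 against 1688 and 1513 bases), and most of that lay in CEBPB replicate 2. IDH3A was at 1206 and 1284 bases in the controls and at 1262 and 1048 in the CEBPB libraries, so its groups overlapped. IDH3B, with lengths from 1321 to 1324 bases, varied least of the 8. With reads recovered from these lengths and a length offset, the same 5 members were called lower with edgeR, SUCLG1 at -0.56 and MDH2 at -0.48.

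**Figure D5:**
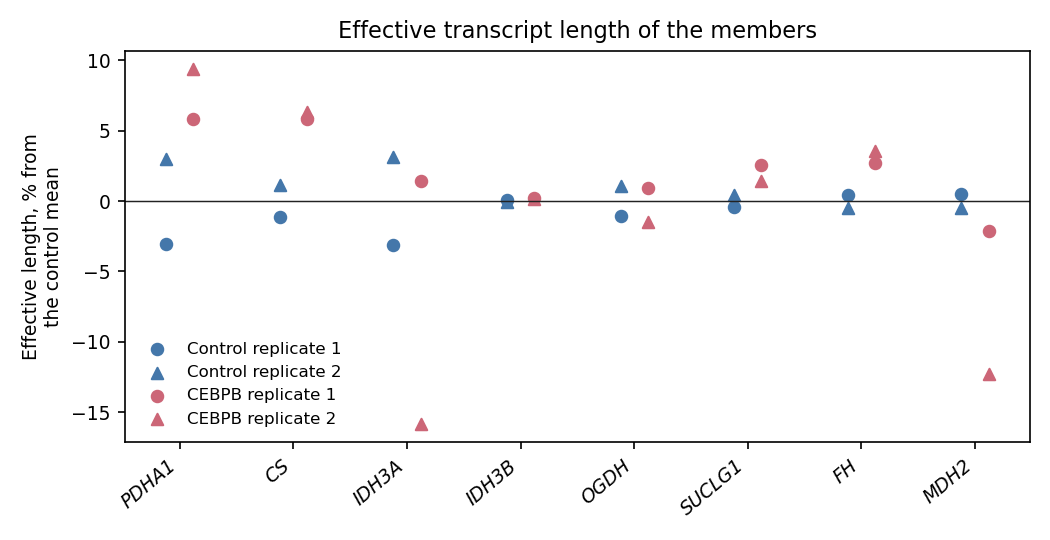
Effective transcript length of the 8 expressed members in each library, as the percent difference from the mean of the controls (vertical axis). Blue marks the controls and red the CEBPB libraries, with circles for replicate 1 and triangles for replicate 2. CEBPB replicate 2 lies lowest for IDH3A, MDH2 and OGDH. Both CEBPB libraries lie higher than both controls for PDHA1, CS, FH, SUCLG1 and, by little, IDH3B.

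The genes whose TPM over the 4 libraries was most like that of CS were BLMH, UHRF2 and UQCRQ, at distances of 0.0068, 0.013 and 0.016 between log2(TPM + 1) profiles centred on their own mean. BLMH was at 66.1 and 69.4 TPM against 62.1 and 63.7 TPM, and UQCRQ, a subunit of respiratory complex III, at 223 and 233 against 210.0 and 213 TPM. With 4 libraries, such likeness is a description.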

How the data were processed

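The libraries were made from poly(A) RNA of OCI-AML3 cells with a stranded kit, per the labels. The submitters' processing notes name Trimmomatic 0.39, kallisto 0.46.2 and GRCh38. The annotation release, strand setting and step from transcripts to genes are not given in the sources used here. The authors deposited TPM values, estimated counts and, as another unit, effective lengths in bases. The deposited estimated counts were made as TPM times 1 constant per library, as their ratio to TPM shows, and so hold no transcript length. Multiplying TPM by effective length and rescaling gave back reads, of which 58.7% to 60.8% (values between 0.2 and 500) lay within 0.01 of a whole number.

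edgeR 4.0.16 (R 4.3.3) was run on rounded counts after filterByExpr, which left 13698 of 41084 identifiers, with trimmed-mean (TMM) factors of 0.938 to 1.09. Symbols matched 35690 identifiers, and coordinates are GENCODE v29, joined on identifiers without version. Members and lists were chosen with earlier results of these data known. Named are the members, CEBPB, up to 3 genes per list and direction with the smallest adjusted p, and the 3 profiles nearest to CS. Of the genes so named, 1 is not reported here. Complex partners and counterparts were added for their role after values were seen. The edgeR step was tested on simulated data. It found 36 of 80 genes changed 1.5-fold, 63 of 80 changed 2-fold and 36 of 40 changed 4-fold, with 8 false calls. Only these genes were changed, with 13370 genes tested, while the data gave 3251 identifiers called higher and 3390 lower. The adjusted threshold was therefore stricter in the simulation, and its shares found cannot be carried over to the data. A small change that did not pass may have been missed. Alternatives used DESeq2 1.42.0 and limma 3.58.1, and plots matplotlib 3.10.9.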

Additional observations from a re-analysis of the deposited data

How the results depend on the processing

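Over the 39 named genes tested, 520 of 624 values under the alternatives kept their direction and their side of the threshold, and the values that turned sign were all of FH: 0.15 with library totals, 0.14 with limma on log2 TPM with 1 or 0.1 added, and 0.097 without CEBPB replicate 2, against -0.17 without CEBPB replicate 1. With 2 libraries a group, each library weighs heavily; a group with 1 library left borrows its spread from the other group. Against a 1.5-fold change, 1186 of 13698 identifiers were higher and 1188 lower, and 0 members were lower. In the lists that test left 1 higher and 0 lower for pyruvate entry, and 0 and 0 for the other cycle subunits. It left 1 and 0 for lipoate and assembly factors, 0 and 4 for carriers and feeder enzymes, and 2 and 1 for the cytosolic and NADP-linked counterparts. The 1 gene left lower among the cytosolic and NADP-linked counterparts was the mitochondrial IDH2. That list, called the cytosolic counterparts below, also holds the mitochondrial ME2. For the itaconate route the same test left 0 higher and 1 lower, and for the biogenesis regulators 0 higher and 3 lower. With library totals 2 members were higher and 2 lower, and with limma on log2 TPM (either pseudocount) 2 were higher and 3 lower. In these 3 settings 1 other cycle subunit was lower, 1 lipoate and assembly factor lower, 1 carrier or feeder gene higher and 2 biogenesis regulators higher. DESeq2 gave 2 lower in pyruvate entry and 1 higher among carriers. Recovered reads gave 1 lower lipoate and assembly factor and 1 higher carrier gene. Without a filter 0 other cycle subunits and 1 itaconate gene were higher, and limma-voom also gave 1 itaconate gene. The cause was not tested, beyond the shift of the median gene by library totals. At a shift over 5%, the effective length of 3 members (PDHA1, CS and MDH2) differed. The share of all tested identifiers at that cut was not counted, so it cannot be read as particular to the members.

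The replicate numbers are not said to mark a shared culture, and deviations of same-numbered libraries had a correlation of -0.013. With the replicate number as a block, 3174 identifiers were higher and 3308 lower, 5 members lower and 0 higher, 2 pyruvate entry genes lower and 0 other cycle subunits higher.

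With 1 library left out, 2289 to 2820 identifiers were higher and 2398 to 3063 lower, and 0 to 1 members were higher and 2 to 5 lower, 2 of them without either control. Pyruvate entry had 2 to 3 higher and 1 to 2 lower. The other cycle subunits had 0 higher and 2 to 3 lower, and the lipoate and assembly factors 0 to 2 in either direction. The cytosolic counterparts had 2 higher and 3 to 4 lower, and the carriers 0 to 1 higher and 5 lower. The itaconate route had 1 to 2 higher and 1 lower, and the biogenesis regulators 0 to 1 higher and 5 lower.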
